A study of Homo sapiens with 6 samples.

Results

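The genes described here are 45 components of the lysosome, chosen by symbol: 10 cathepsins, 10 glycosidases, 4 sulfatases, 5 lipid and peptide hydrolases, 3 soluble carriers and cofactors, 6 membrane proteins and 7 genes of the vacuolar H+-ATPase (V-ATPase). The deposited table of counts had 57773 rows, of which 46 carried one of the 45 symbols, because IDS was the name of 2 rows. The filter on low counts kept 16290 rows for testing. Among them were 45 of the 46 rows, so that each symbol was tested once, and the row that did not pass was the second IDS row (ENSG00000241489), with 7 to 11 counts per library. SW872 is an established human liposarcoma cell line, and Apatinib is a small molecule inhibitor of the receptor tyrosine kinase VEGFR-2. The study compared mRNA of 3 replicates of SW872 cells treated with 18 μM Apatinib for 24 h with that of 3 replicates of untreated SW872 cells (control), all grown in RPMI 1640 with serum. No vehicle is named for the control group, whose protocol label repeats the Apatinib treatment, so the groups were taken from the titles and the treatment labels, which give control and none. The replicates were described as biological, and all came from 1 cell line, with 1 dose and 1 time of treatment.

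Lysosomes are acidic organelles that break down proteins, glycans, glycogen, lipids and nucleic acids delivered by endocytosis and autophagy. The V-ATPase pumps protons into the lumen, where cathepsins cut proteins, glycosidases and sulfatases take glycans apart from their ends, and saposins and other small proteins present lipids to their hydrolases. Many lysosomal genes carry a palindromic element built on the E-box CACGTG in their promoters, to which the MiT/TFE transcription factors (TFEB, TFE3, MITF and TFEC) can bind, and inherited loss of single hydrolases causes storage diseases.

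The promoter sequences of 4 of these genes show that element. Promoter windows of RefSeq (GRCh38.p14), which run from 250 bases before the start of a gene to 50 after it, were found for 30 of the 45 symbols. The E-box CACGTG stood in a window of 10 of the 30 genes (33.3%), against 2396 of 27305 genes (8.77%) in the whole RefSeq table. The longer form TCACGTGA, which contains CACGTG, stood in windows of 5 of the 30 (16.7%), namely ATP6V0D1, CTSA, GAA, LAMP1 and MCOLN1, against 321 genes (1.18%) in the table. Both motifs read the same on either strand, so 1 search covers both strands. The remaining 5 genes with CACGTG were ARSB, CD63, CTSD, CTSF and NEU1. Below are the 250 bases before the start of GAA (chr17:80101331-80101580, plus strand) and CTSD (chr11:1763928-1764177, minus strand), the genes with a match that were higher with Apatinib by the criteria given further on, and of LAMP1 (chr13:113296989-113297238, plus strand) and CTSA (chr20:45891085-45891334, plus strand), which were added for contrast after their values were seen. Each runs 5′ to 3′, and the capitals mark the matches to TCACGTGA or, where the flanking bases differ, to CACGTG.
GAA: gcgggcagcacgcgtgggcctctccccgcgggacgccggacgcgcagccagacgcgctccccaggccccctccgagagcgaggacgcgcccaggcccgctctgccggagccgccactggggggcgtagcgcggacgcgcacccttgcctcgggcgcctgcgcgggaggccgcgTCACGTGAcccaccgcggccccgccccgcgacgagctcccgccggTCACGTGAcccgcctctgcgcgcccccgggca
CTSD: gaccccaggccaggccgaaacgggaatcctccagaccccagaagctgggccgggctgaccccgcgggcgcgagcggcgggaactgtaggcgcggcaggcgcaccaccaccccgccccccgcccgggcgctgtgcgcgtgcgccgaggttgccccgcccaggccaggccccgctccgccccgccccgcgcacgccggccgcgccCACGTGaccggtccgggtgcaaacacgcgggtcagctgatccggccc
LAMP1: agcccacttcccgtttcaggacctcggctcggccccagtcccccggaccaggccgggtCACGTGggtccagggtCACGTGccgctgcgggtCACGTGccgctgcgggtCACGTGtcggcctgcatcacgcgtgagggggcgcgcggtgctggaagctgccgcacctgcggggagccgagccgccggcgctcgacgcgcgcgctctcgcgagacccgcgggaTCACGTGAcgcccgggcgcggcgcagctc
CTSA: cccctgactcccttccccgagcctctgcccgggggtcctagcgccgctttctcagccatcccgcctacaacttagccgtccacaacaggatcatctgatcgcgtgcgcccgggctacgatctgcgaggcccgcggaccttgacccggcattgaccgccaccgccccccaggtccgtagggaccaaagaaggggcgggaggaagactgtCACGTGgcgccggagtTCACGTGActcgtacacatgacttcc
GAA held 2 matches to TCACGTGA, which began 77 and 32 bases before the start. CTSD held 1 match to CACGTG, 47 bases before the start. LAMP1 held 5 matches, more than any of the other 3 sequences, and CTSA held 2. A match is a run of letters and not a measured binding site.

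Total counts per library ranged from 17043314 to 22067558. Controls 1 and 2 resembled each other far more than any other pair of one group: the mean chi-square per gene between them was 2.27, while the other pairs within a group had values of 18.2 to 44.5. They still differed by more than sampling noise, which would give about 1, and were kept as 2 replicates, with the counts of DEGs among the 45 genes and in the other lists repeated after the pair was summed into 1 sample. Marker genes of other cell types were read in CPM, a count relative to the library total after TMM scaling. Of 6 mesenchymal markers, VIM had a mean of 1035 FPKM, a fragment count scaled to transcript length and to library size, and COL3A1 was the only DEG, with 8.67, 11.9 and 7.56 CPM with Apatinib and 3.58, 4.67 and 4.12 CPM in the control (log2 fold change 1.18, FDR 0.00955 by edgeR). The summed level of these 6 ran from 1270 to 1482 CPM with Apatinib and from 1079 to 1195 CPM in the control. Of 6 adipocytic markers, FABP4 and ADIPOQ had 0 counts and 0 FPKM in every library, and 0 counts allow up to 0.174 CPM in a library (3 counts; counting error only). CEBPA also had 0 counts but was listed at 0.0579 to 0.319 FPKM, so its counts and FPKM disagreed. PPARG, at 50.0 to 64.2 CPM, and PLIN1, at 0.808 to 1.69 CPM with the groups apart (0.60, FDR 0.225), were not DEGs. The third one tested, LPL, was a higher DEG with 14.3, 23.5 and 17.1 CPM against 11.3, 10.9 and 8.57 CPM (0.84, FDR 0.0237), and the sum of the list was 65.4 to 89.4 CPM against 61.4 to 63.0 CPM. Of the 7 macrophage and leukocyte markers, PTPRC, CD163, TYROBP and AIF1 had 0 counts in all 6 libraries, and the sums overlapped (3.78 to 5.02 against 4.91 to 6.64 CPM). Neither of the 2 that were tested, CD14 and CSF1R, had an FDR under 0.05 by edgeR. CD14 had 3.78, 3.84 and 2.29 CPM with Apatinib and 4.21, 5.17 and 4.90 CPM in the control, so all treated replicates lay below (-0.53, FDR 0.156). Those of ITGAM, which was not tested at 2 to 11 counts, also lay below the controls. Of the 4 epithelial markers, EPCAM, CDH1 and KRT19 had at most 23 counts, but KRT18 was high at a mean of 157 FPKM. KRT18 had 87.7, 84.2 and 71.4 CPM with Apatinib and 61.6, 68.7 and 69.9 CPM in the control, groups that were apart, with 0.28 and an FDR of 0.156, and the sum of the list was 72.8 to 88.4 against 62.3 to 71.1 CPM. Of the endothelial markers, TEK stood at 10.8 to 14.7 CPM (0.13, FDR 0.640), VWF and CDH5, at 0.52 to 3.03 CPM, changed in opposite directions with log2 fold changes of 1.52 (FDR 0.0386) and -1.22 (FDR 0.0242), and the sums overlapped (14.9 to 16.8 against 13.5 to 15.6 CPM). The part of the mesenchymal, adipocytic and epithelial markers, whose sums were higher with Apatinib, in the results below was not tested. With controls 1 and 2 summed COL3A1 was still a DEG (FDR 0.0423), whereas LPL (0.0807), VWF (0.121) and CDH5 (0.0719) were not.

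Several hydrolases and soluble cofactors rose with Apatinib, whereas none of the 7 V-ATPase genes among the 45 passed the test in either direction. A differentially expressed gene (DEG) was one with a log2 fold change beyond 0.5 in either direction and an FDR under 0.05, taken from edgeR's quasi-likelihood F test with Benjamini-Hochberg adjustment over all 16290 genes. By these criteria 8 of the 45 genes were higher with Apatinib (GAA, PSAP, MANBA, CTSD, GRN, ARSA, IDUA and CTSS) and 0 were lower, whereas 5.97% of all genes tested were higher and 5.48% lower. At the FDR limit alone, NAGLU, TPP1 and NPC1 joined them, which made 11 higher and 0 lower, against 6.83% and 6.07% of all genes. With an unadjusted p under 0.05 there were 20 higher, against 15.3% of all genes, and 1 lower (ARSB). DESeq2 gave 9 higher and 0 lower DEGs among the 45, against 6.73% and 7.05% of the 14901 genes to which it gave an adjusted p. The log2 fold change was above 0 for 39 of the 45 genes, against 50.3% of all genes, and its median was 0.27, against 0.00 for all genes tested. The range was narrow, from -0.33 (ARSB) to 0.79 (GAA), a fold of 0.798 to 1.72.

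The calls depended on controls 1 and 2. With these summed, 0 of the 45 genes were DEGs or passed the FDR limit alone, with 292 over all genes and 1.24% of them higher, and the FDRs of the 8 genes ran from 0.0547 (GAA) to 0.139 (GRN). In that fit 13 of the 45 genes had an unadjusted p under 0.05, against 20.4% of all genes. Leaving out control 1 or control 2 alone also left 0 DEGs among the 45, with 1.15% and 1.29% of all genes higher. The fold changes moved little in these 3 fits: the log2 values of the 8 genes were 0.47 to 0.74, against 0.51 to 0.79 with all libraries. Without control 3 all 8 stayed DEGs and NAGLU made 9, against 6.56% of all genes higher, and without Apatinib 1 the number was 4, against 3.11%.

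**Figure D1:**
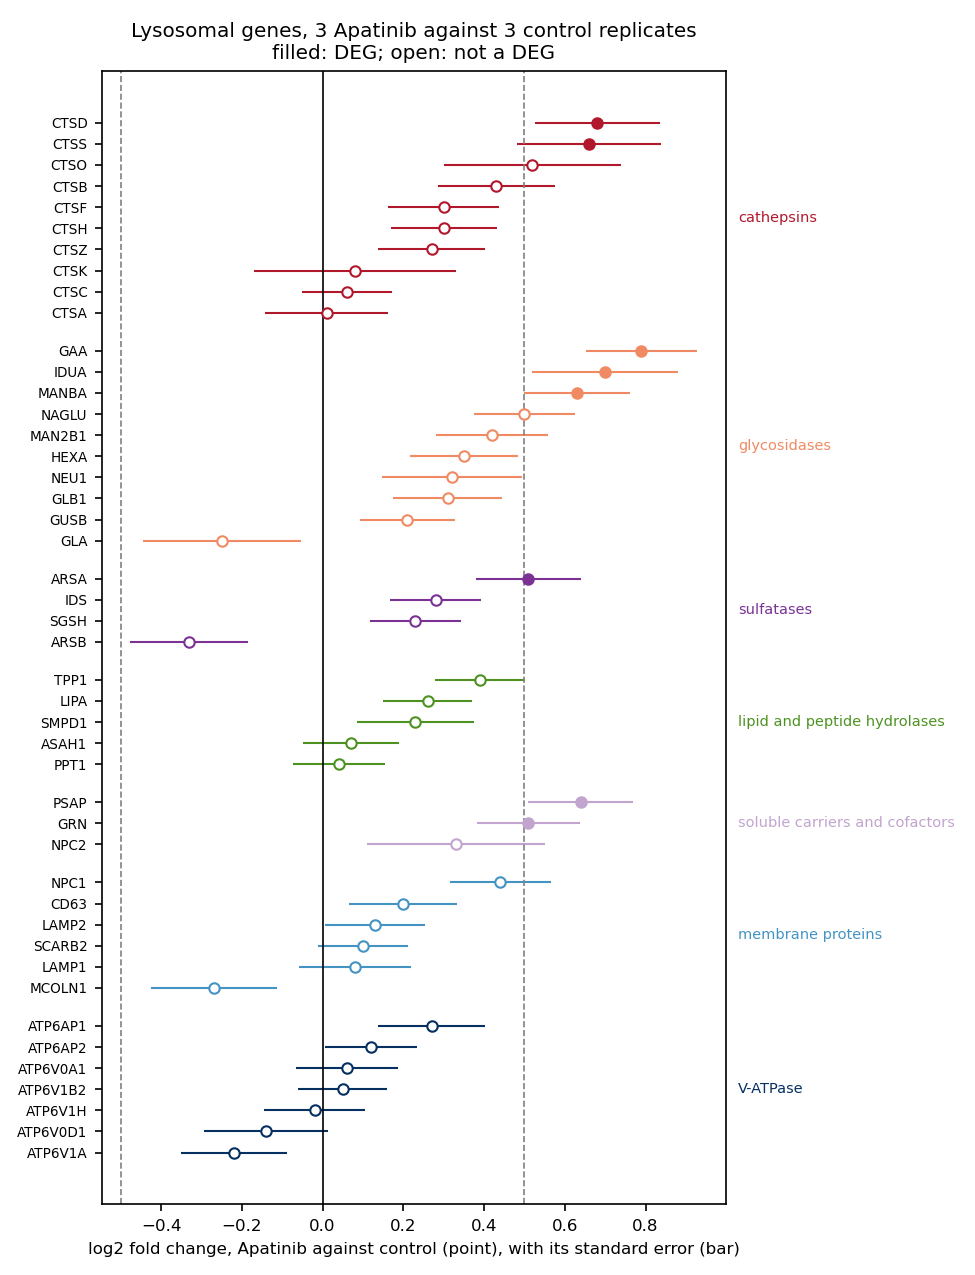
Log2 fold change of the 45 lysosomal genes (x axis, Apatinib against control, 3 replicates each) with its standard error as a bar, by role (colour). Filled points are the 8 DEGs, the dashed lines mark the fold change limit of 0.5 in either direction, and 39 of the 45 points lie above 0, whereas the 7 V-ATPase points lie on both sides of it.

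In the CPM values the 3 Apatinib replicates lay wholly above the 3 control replicates for 20 of the 45 genes and wholly below them for 1 gene, while the groups overlapped for 24. Over all genes tested, 17.5% lay wholly above and 15.7% wholly below. The summed level of the 45 genes was 9337, 7832 and 8143 CPM for Apatinib 1 to 3 against 6564, 6514 and 7289 CPM for controls 1 to 3. That is a mean of 0.844% of the library total after TMM scaling with Apatinib and 0.679% in the control. The groups did not overlap in this sum, and Apatinib 1 was the highest library and control 3 the highest of the controls. CTSB, with a mean of 2042 against 1517 CPM, and PSAP, with 844 against 542 CPM, weigh most in the sum. The same libraries led most single genes: control 3 was the highest control for 35 of the 45 genes and for 8 of the 8 DEGs, and Apatinib 1 was the highest treated replicate for 32. Control 3 was also the control nearest to the Apatinib mean for 31 of the 45 genes (68.9%), against 51.9% of all genes tested. In bulk RNA, a change in the share of cells of one kind and a change in RNA per cell cannot be told apart.

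The 10 cathepsins among the 45 genes, proteases of the lysosome, all had a log2 fold change above 0 (from 0.01 to 0.68, median 0.30), and 2 of them were DEGs. Over all genes tested 5.97% were higher DEGs and 50.3% were above 0. Apatinib lay wholly above the control for 4 of the 10 cathepsins, against 17.5% of all genes tested. CTSD, an aspartic endoprotease, had 189, 152 and 132 CPM with Apatinib and 88.9, 91.3 and 114 CPM in the control. All 3 treated replicates were above the highest control, the log2 fold change was 0.68 ± 0.155 (SE), and the FDR was 0.0197 by edgeR. CTSS, a cysteine protease known for its part in antigen processing, had 11.3, 10.4 and 8.30 CPM with Apatinib and 6.47, 5.88 and 6.64 CPM in the control. Its groups were also apart, at a level far under that of CTSD, with a log2 fold change of 0.66 ± 0.178 (SE) and an FDR of 0.0354 by edgeR. Leaving out 1 library ended the call of CTSD without Apatinib 1 (FDR 0.0598), control 1 (0.106) or control 2 (0.102). It ended that of CTSS without Apatinib 1 (FDR 0.104), Apatinib 2 (0.0531), control 1 (0.129) or control 2 (0.158).

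CTSB, the most abundant cathepsin, had 2392, 1721 and 2012 CPM with Apatinib and 1454, 1431 and 1667 CPM in the control. Apatinib was above the control in every replicate, but the spread among the treated replicates was wide, and with a log2 fold change of 0.43 ± 0.145 (SE) and an FDR of 0.0725 by edgeR it was not a DEG. Without Apatinib 2, its lowest treated replicate, the values were 0.54 and 0.0236, while without Apatinib 1 they were 0.30 and 0.191, and without control 1 or control 2 the FDR was 0.257 or 0.277. CTSO had the third largest cathepsin value, 0.52, but its groups overlapped, with 20.0, 33.2 and 22.4 CPM against 21.6, 17.9 and 13.3 CPM, and the FDR was 0.132. The exopeptidases CTSH and CTSZ and the endopeptidase CTSF had log2 fold changes of 0.30, 0.27 and 0.30, with the groups apart only for CTSH. The other 3 were near 0, namely CTSK (0.08), the dipeptidyl peptidase CTSC (0.06) and the serine carboxypeptidase CTSA (0.01), and CTSA was below 0 without Apatinib 1 (-0.14) and with a correction for GC content (-0.19). The promoter of CTSA held the same TCACGTGA as that of GAA, and the part of the motif in these values was not tested.

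The glycosidases had the highest median of the 3 large families, 0.38, with 9 of 10 above 0, 3 DEGs and groups that did not overlap for 7. Over all genes tested 50.3% were above 0, 5.97% were higher DEGs, and 17.5% had Apatinib wholly above the control. GAA, the acid alpha-glucosidase that frees glucose from glycogen, had the smallest FDR of the 45 genes. It had 133, 133 and 103 CPM with Apatinib against 67.7, 67.1 and 79.3 CPM in the control, so that the lowest treated replicate was above the highest control. The log2 fold change was 0.79 ± 0.138 (SE), a fold of 1.72, with an FDR of 0.00834 by edgeR. MANBA, the beta-mannosidase that acts late in the breakdown of N-linked glycans, had 41.2, 50.9 and 41.3 CPM against 28.1, 29.0 and 29.2 CPM. Its controls were close together, and the log2 fold change was 0.63 ± 0.131 (SE) with an FDR of 0.0145. IDUA, which removes iduronic acid from dermatan and heparan sulfate, had 11.6, 15.7 and 12.7 CPM against 7.22, 7.75 and 9.53 CPM. The groups did not overlap, and the log2 fold change was 0.70 ± 0.181 (SE) with an FDR of 0.0304. GAA lost its call without control 1 (FDR 0.0572) or control 2 (0.0542), as did MANBA (0.0910 and 0.0806). The call of IDUA was lost without control 1 (FDR 0.146), control 2 (0.135) or Apatinib 2 (0.0623).

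NAGLU, which acts on heparan sulfate after IDUA, stood at the fold change limit. It had 104, 88.5 and 85.5 CPM with Apatinib and 64.4, 61.1 and 71.1 CPM in the control, with the groups apart, a log2 fold change of 0.50 ± 0.126 (SE), just under the limit before rounding, and an FDR of 0.0292 by edgeR. It became a DEG without Apatinib 2 (0.53), Apatinib 3 (0.55) or control 3 (0.56), and in DESeq2 (FDR 0.00691). It missed the FDR limit without Apatinib 1 (0.0867), control 1 (0.140) or control 2 (0.161), and with the GC correction, where its value was 0.26 (FDR 0.0572). GUSB and HEXA were the glycosidases with the highest FPKM. The beta-glucuronidase GUSB had 170, 142 and 147 CPM against 131, 128 and 139 CPM, groups that were apart by a small margin, with a log2 fold change of 0.21 and an FDR of 0.261. HEXA, the alpha subunit of beta-hexosaminidase, had 27.0, 29.1 and 26.6 CPM against 22.0, 19.3 and 23.5 CPM, again without overlap, with 0.35 and an FDR of 0.104. MAN2B1 (0.42), NEU1 (0.32) and GLB1 (0.31) were above 0 and not DEGs. GLA, the alpha-galactosidase, was the only glycosidase below 0, at -0.25 ± 0.196 (SE), with Apatinib 2 at 22.5 CPM and the other 5 libraries at 36.0 to 43.3 CPM. Without Apatinib 2 its value was -0.02.

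The V-ATPase genes had 0 DEGs and 0 with an unadjusted p under 0.05, against 11.5% and 30.6% of all genes tested. The log2 fold changes of the family ran from -0.22 to 0.27 with a median of 0.05, 4 above 0 and 3 below, and the groups overlapped for 6 of 7. ATP6AP2 and ATP6AP1, accessory proteins of the pump, had the highest FPKM and the highest log2 fold changes of the family. ATP6AP2 had 198, 197 and 223 CPM with Apatinib and 196, 192 and 181 CPM in the control. The groups were barely apart, with a log2 fold change of 0.12 ± 0.114 (SE) and an FDR of 0.526 by edgeR. ATP6AP1 had 251, 213 and 212 CPM against 177, 170 and 214 CPM. Here control 3 lay among the treated replicates, the log2 fold change was 0.27 ± 0.132 (SE), and the FDR was 0.196. Its groups were apart in FPKM, at 54.9, 63.5 and 70.2 FPKM against 44.9, 36.3 and 51.7 FPKM, and limma on log2(FPKM + 1) gave 0.50 with an FDR of 0.0744. In the cytosolic V1 sector the ATP-binding subunit ATP6V1A had -0.22 ± 0.132 (SE), with 77.0, 69.5 and 92.4 CPM against 92.6, 97.4 and 89.0 CPM, its partner ATP6V1B2 had 0.05 and the regulatory subunit ATP6V1H -0.02. In the membrane V0 sector ATP6V0D1 had -0.14 and ATP6V0A1 0.06. For the 5 sector subunits the FDR ran from 0.277 to 0.935, so a change of this size was not told from the spread between replicates.

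The families were also read with each library set against the mean of the 3 controls. The median over the glycosidases was 0.51, 0.35 and 0.34 on the log2 CPM scale for Apatinib 1 to 3 against -0.05, -0.07 and 0.13 for controls 1 to 3. For the cathepsins it was 0.48, 0.15 and 0.28 against -0.05, -0.08 and 0.11, so that Apatinib 2 lay close to control 3. The V-ATPase gave 0.07, 0.02 and 0.01 against -0.01, -0.11 and 0.02, and the median over all genes tested stayed between -0.02 and 0.01. The difference between the families was not tested.

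**Figure D2:**
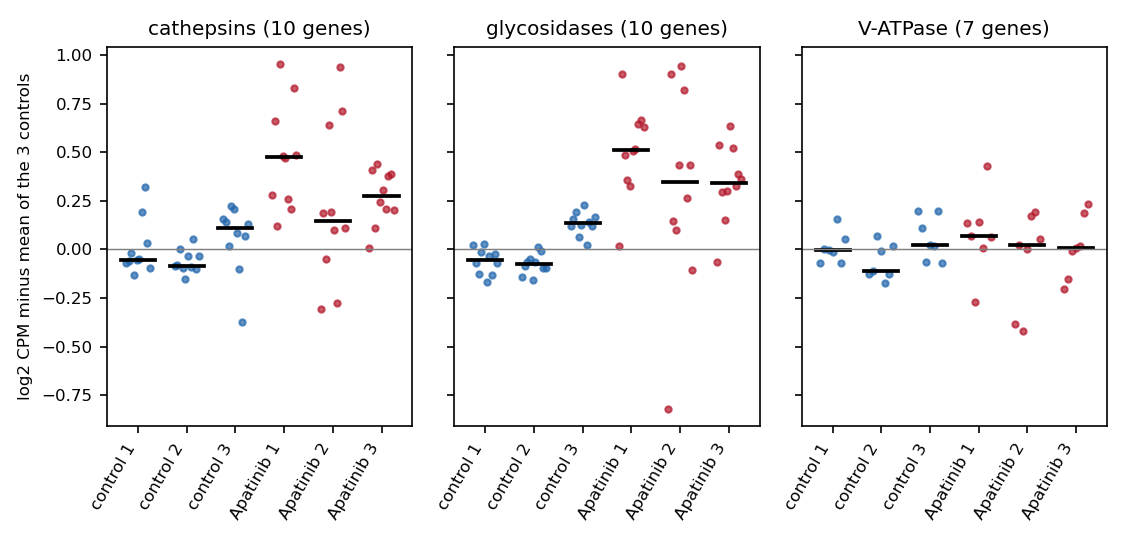
Deviation in log2 CPM from the mean of the 3 controls (y axis) in each library (x axis) for the cathepsins, the glycosidases and the V-ATPase genes. Each point is 1 gene and the black line is the family's median, which lies at 0.34 to 0.51 for the glycosidases in the Apatinib replicates and at 0.01 to 0.07 for the V-ATPase.

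The 4 sulfatases, which take sulfate groups off glycans and lipids, split. ARSA, which desulfates sulfatide, had 51.2, 46.3 and 42.5 CPM with Apatinib and 31.3, 31.0 and 35.8 CPM in the control. Its groups did not overlap, and it was a DEG with a log2 fold change of 0.51 ± 0.130 (SE) and an FDR of 0.0292 by edgeR. The call ended without Apatinib 1 (FDR 0.0845), control 1 (0.146) or control 2 (0.151). IDS, the iduronate sulfatase that acts before IDUA, had 118, 130 and 133 CPM against 108, 103 and 104 CPM, with the groups apart, a log2 fold change of 0.28 and an FDR of 0.122. SGSH, the heparan N-sulfatase, had 89.7, 84.8 and 83.3 CPM against 71.8, 70.6 and 77.1 CPM, also apart, with 0.23 and an FDR of 0.191. ARSB, which acts on dermatan sulfate, was the only one of the 45 genes whose treated replicates all lay below the controls. It had 62.2, 46.6 and 60.1 CPM with Apatinib and 70.0, 62.4 and 79.3 CPM in the control, barely apart, with a log2 fold change of -0.33 ± 0.146 (SE) and an FDR of 0.156.

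Among the soluble carriers and cofactors 2 of 3 were higher DEGs, against 5.97% of all genes tested. PSAP encodes the precursor of the saposins, which lift sphingolipids out of membranes for their hydrolases. It had 920, 868 and 745 CPM with Apatinib (844 ± 89.6, SD, n = 3) and 519, 507 and 600 CPM in the control (542 ± 50.4, SD, n = 3). The groups were far apart, with a log2 fold change of 0.64 ± 0.130 (SE) and an FDR of 0.0135 by edgeR. GRN encodes progranulin, which is cut into granulins in the lysosome. It had 497, 448 and 399 CPM against 296, 301 and 344 CPM, without overlap, and its log2 fold change was 0.51 ± 0.128 (SE) with an FDR of 0.0274. The calls ended without control 1 or control 2 (FDRs of 0.0891 and 0.0921 for PSAP, 0.146 and 0.145 for GRN), and that of GRN also without Apatinib 1 (0.0750). NPC2, which hands cholesterol to NPC1, had 121, 56.6 and 94.3 CPM against 67.4, 67.7 and 81.0 CPM. Apatinib 2 lay below all 3 controls and the other treated replicates above them, so its log2 fold change was 0.33 ± 0.221 (SE) with an FDR of 0.341, 0.58 with an FDR of 0.0335 when Apatinib 2 was left out, and 0.07 with an FDR of 0.867 when Apatinib 1 was left out.

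**Figure D3:**
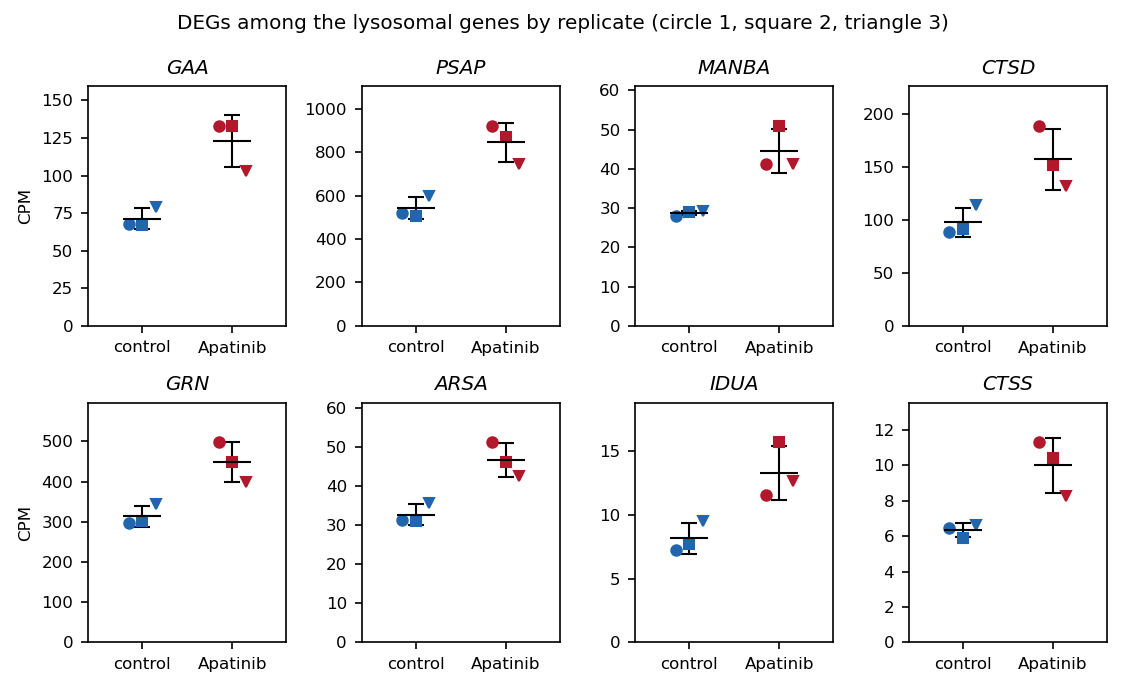
CPM (y axis, from 0) of the 8 DEGs in the control and Apatinib replicates, with the replicate number as the shape of the point, the mean as a horizontal line and 1 SD (n = 3) as the bar. In each panel the 3 Apatinib points lie above the 3 control points, and control 3 (triangle) is the highest control.

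The lipid and peptide hydrolases had 0 DEGs, with 5 of 5 above 0 and a median of 0.23. Over all genes tested 11.5% were DEGs and 50.3% were above 0. TPP1, a tripeptidyl peptidase, had 366, 354 and 331 CPM with Apatinib and 272, 258 and 273 CPM in the control. The groups were well apart and the FDR was 0.0428 by edgeR, but the log2 fold change of 0.39 ± 0.112 (SE) was under the limit, and the FDR was above 0.05 without Apatinib 1 (0.0980), control 1 (0.178), control 2 (0.223) or control 3 (0.0683). PPT1, which removes palmitate from proteins, had 182, 172 and 164 CPM against 160, 163 and 180 CPM, which overlapped, with 0.04 and an FDR of 0.835. The cholesteryl ester hydrolase LIPA (0.26, groups apart), the sphingomyelinase SMPD1 (0.23) and the ceramidase ASAH1 (0.07) were not DEGs.

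The membrane proteins also had 0 DEGs, and their median, 0.12, was closer to that of the V-ATPase than to that of the hydrolases. NPC1, which exports cholesterol from the lysosome, was the exception at the FDR limit. It had 99.7, 104 and 82.3 CPM with Apatinib and 71.7, 68.3 and 70.1 CPM in the control. The groups did not overlap, and the log2 fold change was 0.44 ± 0.125 (SE) with an FDR of 0.0402 by edgeR, and 0.54 with an FDR of 0.0253 without Apatinib 3. Leaving out any one of the other 5 libraries put it over the FDR limit (0.0582 to 0.183). CD63, a tetraspanin of late endosomes and lysosomes, had 369, 303 and 316 CPM against 261, 271 and 328 CPM, with control 3 among the treated replicates, a log2 fold change of 0.20 and an FDR of 0.333. LAMP2, one of the main glycoproteins of the lysosomal membrane, had 323, 274 and 351 CPM against 286, 296 and 282 CPM, which overlapped, with 0.13 and an FDR of 0.499. LAMP1, whose promoter held the most matches of the sequences shown, had a log2 fold change of 0.08 ± 0.139 (SE), and it fell below 0 without Apatinib 1 (-0.06), in the FPKM values (-0.07) and with the GC correction (-0.02). SCARB2, the receptor that carries glucocerebrosidase to the lysosome, had 0.10, and the calcium channel MCOLN1 had -0.27 with overlapping groups. Among the 30 genes with a promoter window, CACGTG stood in 2 of 4 DEGs and in 8 of 26 genes that were not DEGs. The other DEGs had no window, and the part of the motif in the changes was not tested.

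Levels of different genes were compared in the deposited FPKM values, which take transcript length into account. The median of the 45 genes was 30.7 FPKM, against 6.16 for all genes tested, and 38 of them exceeded 10 FPKM. CTSB was the highest at 483 FPKM, rank 65 of all genes, and CD63 (213), PSAP (171), CTSD (148), CTSZ (136), GRN (130) and NPC2 (106) followed. The lowest were IDUA (4.92), CTSS (1.41) and CTSK (0.925), so that the DEGs came from both ends of the order. In CTSD and CTSZ, neighbours in that order, the replicates of the 2 genes overlapped over all 6 libraries. CTSB alone made up 45.3% to 54.9% of the cathepsin FPKM of a library. The direction of the FPKM ratio was that of the counts for 44 of the 45 genes, all but LAMP1, and the 8 DEGs were all without overlap in FPKM as well. Apatinib lay wholly above the control in FPKM for 24 of the 45 genes, against 19.6% of all genes tested. With limma on log2(FPKM + 1), 4 of the 45 genes were higher DEGs, against 3.51% of the genes in that fit, and on log2(FPKM + 0.1) 7 were, against 3.65%.

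The length implied by count and FPKM together was under 1 kb, a limit chosen after the values were seen, for 3 of the 45 genes tested. It was 0.563 kb for HEXA (longest transcript 6.91 kb), 0.764 kb for NPC2 (1.44 kb) and 0.859 kb for CTSD (2.12 kb), and only that of HEXA was under 0.3 of the longest transcript. In GENCODE 29, 41.7% of the exon bases of CTSD also belong to AC068580.4 on the same strand. This release annotates GRCh38, whereas the reads were processed on hg19, so the annotation used for counting may differ. How reads in shared exons were counted is not given in the sources used here. The FPKM values of CTSD gave a log2 ratio of 0.71, close to that of its counts, so its direction did not depend on the measure. HEXA had 57.0, 49.7 and 43.2 FPKM with Apatinib and 36.7, 36.0 and 39.3 FPKM in the control, without overlap, with an FDR of 0.0757 by limma.

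The DEGs were richer in G and C than the other genes. The median GC content of the longest transcript was 62.9% for the 8 DEGs, 50.7% for the other 37 genes and 48.5% for all genes tested. GAA (64.1%), CTSD (64.0%), GRN (61.8%), ARSA (66.0%) and IDUA (69.3%) were on the high side, and CTSS (39.5%) and MANBA (40.5%) on the low side. With a smooth function of GC content as an offset in edgeR, 5 of the 45 genes were higher DEGs, against 4.92% of the genes in that fit, and 36 were above 0, against 48.3%. GAA (0.56, FDR 0.00851), PSAP (0.51, FDR 0.0119), MANBA (0.85, FDR 0.00426) and CTSS (0.94, FDR 0.0192) remained and CTSO (0.77, FDR 0.0213) joined them. CTSD (0.45), GRN (0.31), IDUA (0.42) and ARSA (0.25) were then under the fold change limit, and IDUA (FDR 0.137) and ARSA (FDR 0.0777) missed the FDR limit too. The correction also moved genes near 0: ASAH1 went from 0.07 to 0.43 (FDR 0.0261), LAMP2 from 0.13 to 0.48 (FDR 0.0483) and MCOLN1 from -0.27 to -0.46 (FDR 0.0265), past the FDR limit but not the fold change limit. Whether GC content had a part in the fold changes was not tested beyond this correction.

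**Figure D4:**
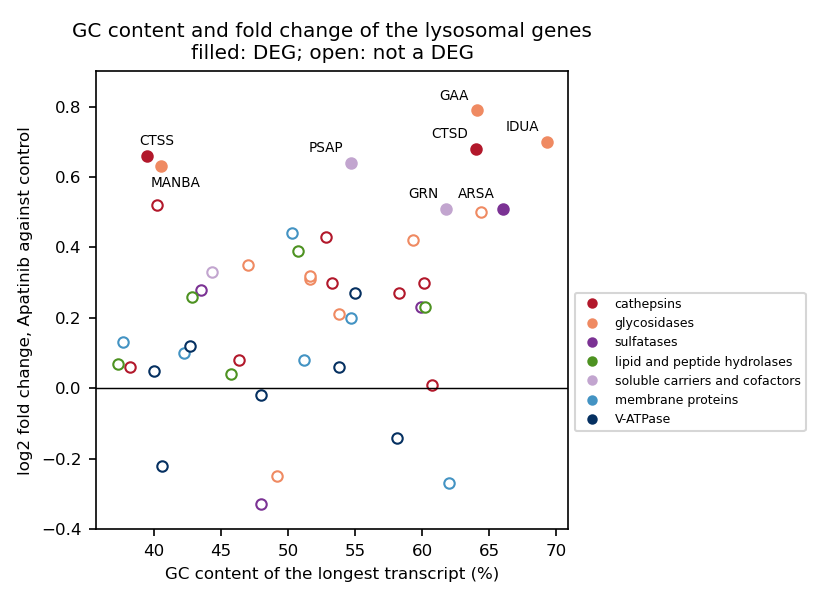
GC content of the longest transcript (x axis, %) and log2 fold change (y axis, Apatinib against control) of the 45 lysosomal genes, coloured by role, with the 8 DEGs filled and named. DEGs stand at both ends of the axis, from CTSS at 39.5% to IDUA at 69.3%, with a median of 62.9%.

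Other genes of the pathway were read from lists of further lysosomal genes. Of 30 other lysosomal hydrolases, 6 were DEGs and higher with Apatinib and 0 lower, against 5.97% and 5.48% of all genes tested. In this list 26 were above 0, against 50.3% of all genes, and the median was 0.30. With controls 1 and 2 summed 2 of the 30 were higher DEGs, against 1.24% of all genes. ARSG, a sulfatase of heparan sulfate, had 10.6, 14.0 and 10.3 CPM with Apatinib and 5.60, 5.28 and 5.73 CPM in the control, with a log2 fold change of 1.07 ± 0.180 (SE) and an FDR of 0.00716. ACP5, the tartrate-resistant acid phosphatase, had 12.9, 8.13 and 9.16 CPM against 3.35, 4.51 and 4.40 CPM, with 1.30 ± 0.221 (SE) and an FDR of 0.00762. These are larger changes than that of GAA, and both genes were DEGs in every alternative fit, with FDRs of 0.0412 and 0.0369 when controls 1 and 2 were summed. The nuclease DNASE2 (0.70, FDR 0.0109), the exonuclease PLD3 (0.76, FDR 0.0109) and the protease CTSL (0.55, FDR 0.0150) were also higher, but not with controls 1 and 2 summed (FDRs of 0.0643, 0.0703 and 0.0886). Of the 4 genes below 0, 3 had treated replicates that all lay below the controls. They were GGH, the gamma-glutamyl hydrolase, the cathepsin CTSV and GALC, named after their values were seen. GGH had 74.9, 46.1 and 98.2 CPM with Apatinib and 128, 124 and 104 CPM in the control (-0.70, FDR 0.0569 by edgeR). CTSV had 8.43, 7.06 and 12.7 CPM against 15.9, 14.2 and 12.9 CPM (-0.61, FDR 0.0793). GALC was barely apart, with 54.6, 60.6 and 63.3 CPM against 65.1, 65.3 and 63.8 CPM (-0.12, FDR 0.514). None of these 3 was a DEG.

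Of 17 other V-ATPase subunits 14 were tested, with a median of 0.19 and 10 above 0. Of these 14, 0 were higher DEGs and 1 lower, against 5.97% and 5.48% of all genes tested. An unadjusted p under 0.05 was found for 3 above 0 and 1 below. The smallest p of those above 0 was that of ATP6V0E1, a subunit of the V0 sector, with groups apart, a log2 fold change of 0.38 and an FDR of 0.0688 by edgeR. The lower DEG was ATP6V1C1, a subunit of the V1 sector, with 33.5, 29.9 and 43.7 CPM with Apatinib and 57.1, 58.3 and 48.1 CPM in the control, and it had a log2 fold change of -0.61 ± 0.158 (SE) and an FDR of 0.0304. It was not a DEG with controls 1 and 2 summed (FDR 0.128), nor without Apatinib 1 (0.0867), Apatinib 2 (0.0663), control 1 (0.130) or control 2 (0.139). With the GC correction its value was -0.35 (FDR 0.0899), which missed both limits. In the list of other lysosomal membrane proteins, 19 were tested, with 11 above 0 and a median of 0.14. Of these 19, 2 were higher DEGs and 0 lower, against 5.97% and 5.48% of all genes tested. They were the lipid transporter ABCA2 (0.61, FDR 0.0145) and the sialic acid exporter SLC17A5 (0.61, FDR 0.0433), neither of which was a DEG with controls 1 and 2 summed (FDRs of 0.0912 and 0.142). With the GC correction ABCA2 had 0.38, under the fold change limit. SLC17A5 was a DEG in only 1 of the 6 fits that left out 1 library. None of the 14 genes of mannose 6-phosphate tagging and sorting, which deliver hydrolases to the lysosome, was a DEG or had an unadjusted p under 0.05, and their median was 0.03, with 9 above 0. Over all genes tested 11.5% were DEGs and 30.6% had such a p. Of the cathepsin inhibitors 4 of 8 were tested, with 0 DEGs among those 4 and a median of 0.28. Cystatin C (CST3), the secreted inhibitor of cysteine cathepsins, had 0.53 ± 0.162 (SE) with an FDR of 0.0527. Cystatin F (CST7), a cysteine protease inhibitor that was not on that list and was added after its values were seen, had 2.73, 2.54 and 1.83 CPM with Apatinib and 0.693, 0.935 and 0.870 CPM in the control. Its groups were apart at a low level, and it was a higher DEG with a fold of 2.82 (SE of the log2 fold change 0.303) and an FDR of 0.0133 by edgeR, a call that ended with controls 1 and 2 summed (FDR 0.0527) and without control 1 (0.0730) or control 2 (0.0556). The MiT/TFE factors TFE3 (0.48, FDR 0.0725), MITF (0.60, FDR 0.0585) and TFEB (0.50, FDR 0.177) were all above 0 and not DEGs, and TFEC did not pass the filter.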

How the data were processed

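SW872 cells were profiled by RNA sequencing in 6 libraries, grouped by their labels. The authors deposited a table of counts, whole numbers that were not normalized, and FPKM values for each library. The submitters' processing notes list CASAVA, STAR 2.7.1a and hg19, and the counting program is not given in the sources used here. One column of the FPKM files that matched no library of its own was left out (1 column). The count analysis used edgeR 4.0.16 under R 4.3.3 (filterByExpr, TMM, quasi-likelihood F test), and the FPKM analysis limma 3.58.1. DEGs met the limits of the study, which had used DESeq2: FDR below 0.05 and log2 fold change beyond 0.5. The method was tested on simulated data with planted fold changes larger than those of the DEGs among the 45 genes. The simulated libraries had no pair as alike as controls 1 and 2, so that test does not cover the changes reported here. The genes and lists were chosen with earlier results of these data known. All 45 genes are accounted for, with replicate values for DEGs and the 2 genes of each role with the highest FPKM; replicate values of other genes, chosen after they were seen, are given where groups or libraries stood apart. Other lists give at most their 5 genes with the smallest p. GC content, lengths and overlaps came from GENCODE 29. Alternatives were DESeq2 1.42.0, its size factors in edgeR, no filter, at least 10 counts in every sample, a replicate block, controls 1 and 2 summed, each library left out, limma, a GC offset (loess, span 0.3, for 97.1% of tested genes) and the FDR limit alone.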

Additional observations from a re-analysis of the deposited data

How the results depend on the processing

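The number of DEGs depends on controls 1 and 2. With controls 1 and 2 summed, DEGs numbered 292 over all genes, 0 among the 45, 0 cathepsins and 0 glycosidases. Leaving out 1 library in turn gave 275 (control 1) to 2594 over all genes, 0 to 10 of the 45, 0 to 2 cathepsins, 0 to 4 glycosidases and a median log2 fold change of 0.15 (Apatinib 1) to 0.33. With limma on log2(FPKM + 1) the numbers were 796, 4, 1 and 1, and on log2(FPKM + 0.1) they were 810 over all genes and 1 cathepsin. The GC offset gave 5 of the 45. The cause of these changes was not tested.

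The replicate numbers did not pair the libraries: the deviations from the group means of same-numbered libraries had correlations of -0.259, 0.0808 and -0.220. With the number as a replicate block there were 2215 DEGs over all genes and 7 of the 45, without ARSA (FDR 0.0532).

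Values of genes near 0 changed sign. CTSA gave -0.01 with the replicate block, -0.03 with controls 1 and 2 summed, -0.19 with the GC offset and -0.14 to 0.15 when 1 library was left out. CTSK gave -0.01 to 0.25 and ATP6V1H -0.08 to 0.05 without 1 library. LAMP1 gave -0.07 in both limma fits, -0.02 with the GC offset and -0.06 to 0.17 without 1 library, and ATP6V0A1 -0.05 with the GC offset and -0.02 to 0.14 without 1 library. Of all values of single genes in the alternatives, 707 kept direction and call, 77 lost the call, 11 gained it and 15 changed direction. These values came from the 45 genes and from the DEGs of the lists of further lysosomal genes. Most of the 707 belonged to genes that were not DEGs and stayed so. Each of the 8 DEGs among the 45 kept its call in 2 to 4 of the 6 fits without 1 library. In the 9 other fits each kept it in 5 to 8.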

Other observations

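For a few lysosomal genes the counts and the FPKM values disagreed in level. They were chosen after their values were seen. CD68, a glycoprotein of late endosomes and lysosomes that is abundant in macrophages, had 0 or 1 counts in every library and was not tested in the counts. Its FPKM values were 11.8, 8.56 and 6.78 in the treated replicates against 3.30, 1.79 and 2.85 in the controls, without overlap. By limma on log2(FPKM + 1) the log2 fold change was 1.46 ± 0.216 (SE) with an FDR of 0.0155, which is larger than that of GAA in the counts. In GENCODE 29, 81.7% of the exon bases of CD68 also belong to AC016876.2 on the same strand. ATP6V0C, the proteolipid subunit of the V-ATPase, had 1 to 11 counts and 87.5 to 109 FPKM, with groups that overlapped and an FDR of 0.537 by limma, and 57.5% of its exon bases also belong to AC093525.2. Counts were low for their FPKM value in CLN3 (6 to 16 counts, 9.53 to 11.6 FPKM) and SPNS1 (6 to 28 counts, 12.9 to 18.8 FPKM) too. The annotation used for counting may differ from GENCODE 29, and the part that shared exons had in these counts was not tested.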
